A study of Caenorhabditis elegans with 2 samples.

Results

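GATA factors are zinc-finger proteins that bind DNA at GATA sequences, and in Caenorhabditis elegans they run in cascades that build 2 epithelia. In the endoderm, END-1 and END-3 act briefly in the embryo to specify the intestinal precursor, and ELT-2 and ELT-7 then switch on and maintain intestinal genes in the differentiated gut. In the epidermis, ELT-1 commits embryonic cells to the epidermal fate, and ELT-3, EGL-18 and ELT-6 act after it in the main epidermal syncytium or in the seam cells, the lateral stem-like cells of the skin. The genes described here are the 9 GATA factor genes elt-1, elt-2, elt-3, elt-4, elt-6, elt-7, end-1, end-3 and egl-18, out of 19973 protein-coding genes on the 6 nuclear chromosomes. They were chosen by name, as 5 intestinal members (elt-2, elt-4, elt-7, end-1 and end-3) and 4 epidermal members (elt-1, elt-3, elt-6 and egl-18). For each gene every peak with its summit in the gene body or within 5 kb upstream was collected.

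The peaks come from chromatin immunoprecipitation with sequencing (ChIP-seq) of NHR-11, a nuclear hormone receptor, carried as an eGFP fusion by a transgene. All animals were L1 larvae, the first larval stage, of strain OP305, with the genotype unc-119(ed3) III; wgIs305, and both sexes were pooled. There was 1 group of 2 biological replicates, so no genotype, stage or untagged strain could be compared, and whole animals were used, so a peak cannot be placed in gut or skin cells. The labels give neither the promoter of the fusion nor the amount of fusion protein in either tissue. On the ce11 build the deposited lists hold 30000 candidate peaks for each replicate, 28727 candidates for the pooled replicates and 1141 called peaks, the pooled candidates that the authors kept after testing reproducibility by the irreproducible discovery rate (IDR). The signal of a peak is the authors' own value, on a scale the sources used here do not state, and ran from 13.6 to 681 in the pooled list with a median of 18.4. Every pooled candidate at or above 49.9 was called and none below it, and rank 1 is the strongest signal of a list.

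None of the 9 GATA factor genes held a called NHR-11 summit, where 1951 of all 19973 genes (9.77%) held one. Weaker candidates were present at most of them: 7 of 9 members had at least 1 pooled candidate, against 80.0% of all genes. The 24 pooled candidates in the member windows had signals from 14.6 to 44.4, all under the weakest called peak. Both the absence of a called summit and the presence of weak candidates are what most protein-coding genes showed, so neither count sets the members apart. One member, elt-7, had no candidate in any of the 3 lists, a state it shared with 5.80% of all genes. In the plot of the strongest candidate of each gene, end-3 stands closest to the called list and elt-7 has no value.

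**Figure D1:**
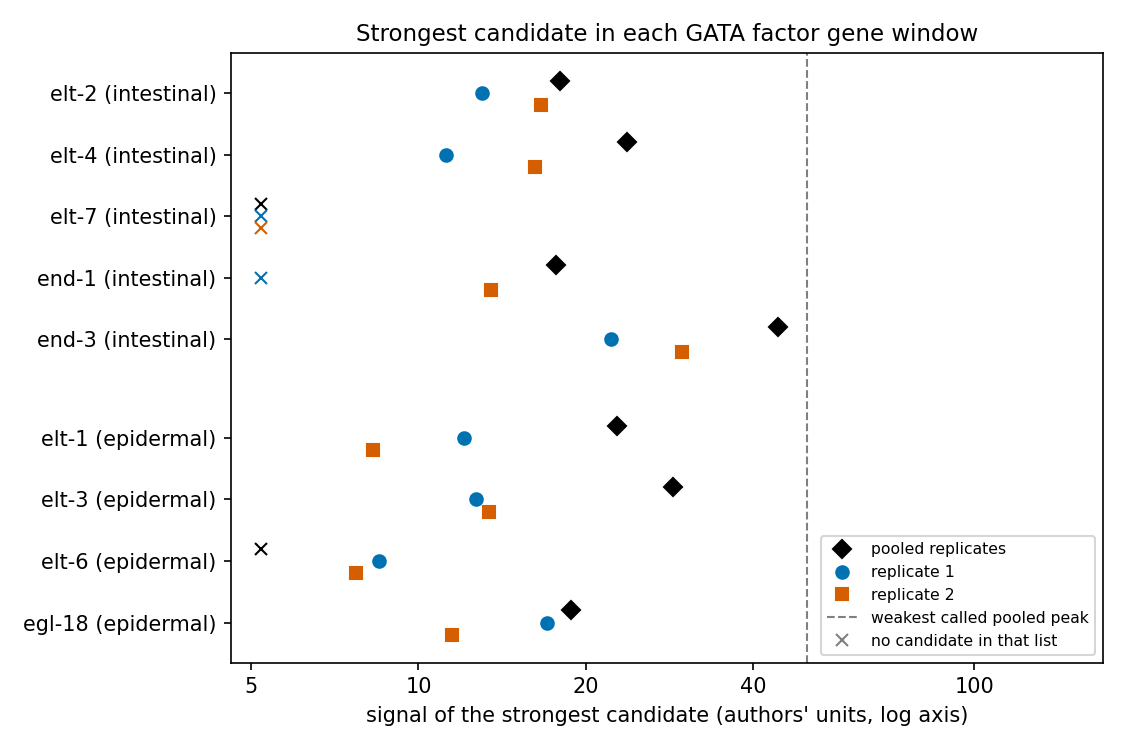
Signal of the strongest candidate in the gene body or 5 kb upstream of each GATA factor gene, on a log axis in the authors' units, for the pooled replicates (diamonds), replicate 1 (circles) and replicate 2 (squares), with crosses where a list has no candidate. The dashed line is the weakest called peak at 49.9, and every member lies to its left, with end-3 nearest at 44.4.

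END-3 and END-1 are the first endoderm-specific factors of the cascade, and their genes lie close together on chromosome V. The strongest candidate of all 9 windows was in that of end-3 (WBGene00001311, chrV:14014695-14015980, + strand). It had a signal of 44.4 in the pooled list (rank 1449), 22.2 in replicate 1 (rank 2105) and 29.8 in replicate 2 (rank 861). Both replicates placed it among their stronger candidates, and replicate 2 alone ranked it within its own top 1141. No other member reached the top 1141 of either replicate, so the count was 1 of 9 in replicate 2, against 9.63% of all genes, and 0 of 9 in replicate 1, against 9.93%. In the pooled list, 307 candidates ranked between the called list and this one, whose signal was 88.9% of the weakest called signal. A strongest signal at or above 44.4 was found in 11.9% of all genes.

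The position of that candidate, however, was at another gene. The pooled peak spans chrV:14012139-14012508, and its summit lies 2371 bp upstream of end-3 but only 9 bp from the 5′ end of aip-1 (WBGene00000097, chrV:14012333-14013644, + strand), which encodes an arsenite-inducible, proteasome-associated zinc-finger protein. On the other side, ddx-17 (WBGene00010260, chrV:14008751-14012052, − strand), named as a DEAD-box helicase gene, starts 272 bp away and runs in the opposite direction. The pooled summit therefore sat between 2 divergent starts and fell in the windows of 3 genes at once. The replicate 2 summit also lay between them, 16 bp from the 5′ end of aip-1. The replicate 1 summit lay 68 bp inside aip-1, in its 5′ untranslated region. The 101 bases that end just before aip-1, on the + strand of ce11 from RefSeq, chrV:14012232-14012332, are shown because they carry the strongest signal in the set:
bases before aip-1: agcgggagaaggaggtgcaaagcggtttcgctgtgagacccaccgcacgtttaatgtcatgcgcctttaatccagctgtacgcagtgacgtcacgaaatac
They are 53.5% G and C and hold no GATAA on either strand. This stretch is not centred on a summit, unlike the later shares for other summits. Within 50 bp of the summit the share was 44.6% in the pool, 23.8% in replicate 1 and 47.5% in replicate 2. GATAA was absent there too. Over the strongest signal in the 3 lists, aip-1 and ddx-17 were the genes most like end-3 of 13639 genes compared, at a distance of 0, because they share this candidate. The next nearest, Y37D8A.6 and spcs-2, were tied at 0.103 log2 units, and both had 42.4 pooled, 21.1 in replicate 1 and 29.4 in replicate 2.

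The other end-3 candidates were weaker by more than the replicate spread. They had pooled signals of 16 at 4808 bp upstream inside an intron of ddx-17, 19.4 at 1714 bp upstream inside a coding exon of aip-1, and 14.6 at 11 bp inside end-3. The last of these was the only pooled candidate at the start of end-3 itself, ranked 24866, and overlapped no candidate of either replicate. For end-1 (WBGene00001310, chrV:13985128-13987074, + strand), the 2 pooled candidates had signals of 17.7 at 62 bp inside the gene, in a coding exon, and 15.9 at 3298 bp upstream, in an intron of a pseudogene. Replicate 1 had no candidate in the end-1 window, while replicate 2 had 9.0 at the start of the gene and 13.5 at the upstream position. The start of end-1 was thus marked in the pool and in replicate 2 only.

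Both end genes are known targets of MED-1 and MED-2, GATA-type factors of the early embryo that bind the unusual site AGTATAC rather than GATA. This site was searched on both strands in the 1000 bp before each gene, after the other values had been seen. It occurred 4 times before end-3, from 233 to 80 bp before the gene, and 2 times before end-1, at 194 and 138 bp, but not before any of the other 7 members. At least 1 copy was found before 6.05% of 19972 genes, and 2 or more before 1.41%. No pooled or replicate 1 candidate summit fell in these 1000 bp of either end gene. Replicate 2 alone had one, 904 bp upstream of end-3, with a signal of 13.1 (rank 7240). The 300 bases before each gene are shown so that the known sites, in capitals, can be set against the positions of the candidates; they lie at chrV:14014395-14014694 and chrV:13984828-13985127 on the + strand of ce11, from RefSeq:
bases before end-3: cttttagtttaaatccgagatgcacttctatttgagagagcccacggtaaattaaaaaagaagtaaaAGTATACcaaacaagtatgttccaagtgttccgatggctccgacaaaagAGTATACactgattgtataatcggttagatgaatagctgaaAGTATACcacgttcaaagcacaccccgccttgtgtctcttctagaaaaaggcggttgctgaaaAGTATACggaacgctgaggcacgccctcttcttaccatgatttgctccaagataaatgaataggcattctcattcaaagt
bases before end-1: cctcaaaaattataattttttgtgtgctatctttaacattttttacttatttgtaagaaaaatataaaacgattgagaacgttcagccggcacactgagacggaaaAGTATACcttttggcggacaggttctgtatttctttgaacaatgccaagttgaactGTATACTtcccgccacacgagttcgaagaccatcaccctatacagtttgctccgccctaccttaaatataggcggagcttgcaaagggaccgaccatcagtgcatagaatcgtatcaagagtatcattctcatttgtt
The end-3 sites lie over 2 kb downstream of the aip-1 summit. The nearest pooled summits, at 11 bp inside end-3 and 62 bp inside end-1, lie on the gene side of the sites. The peak at the start of end-3, however, spans chrV:14014521-14014890. It covers the site 80 bp before the gene and the next site upstream, but not the farther sites. The peak at the start of end-1 spans chrV:13985005-13985374 and covers neither end-1 site. All pooled peaks at members have the same width around their summits. Which sites a peak covers thus follows from its summit position and does not show how far signal extends.

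**Figure D2:**
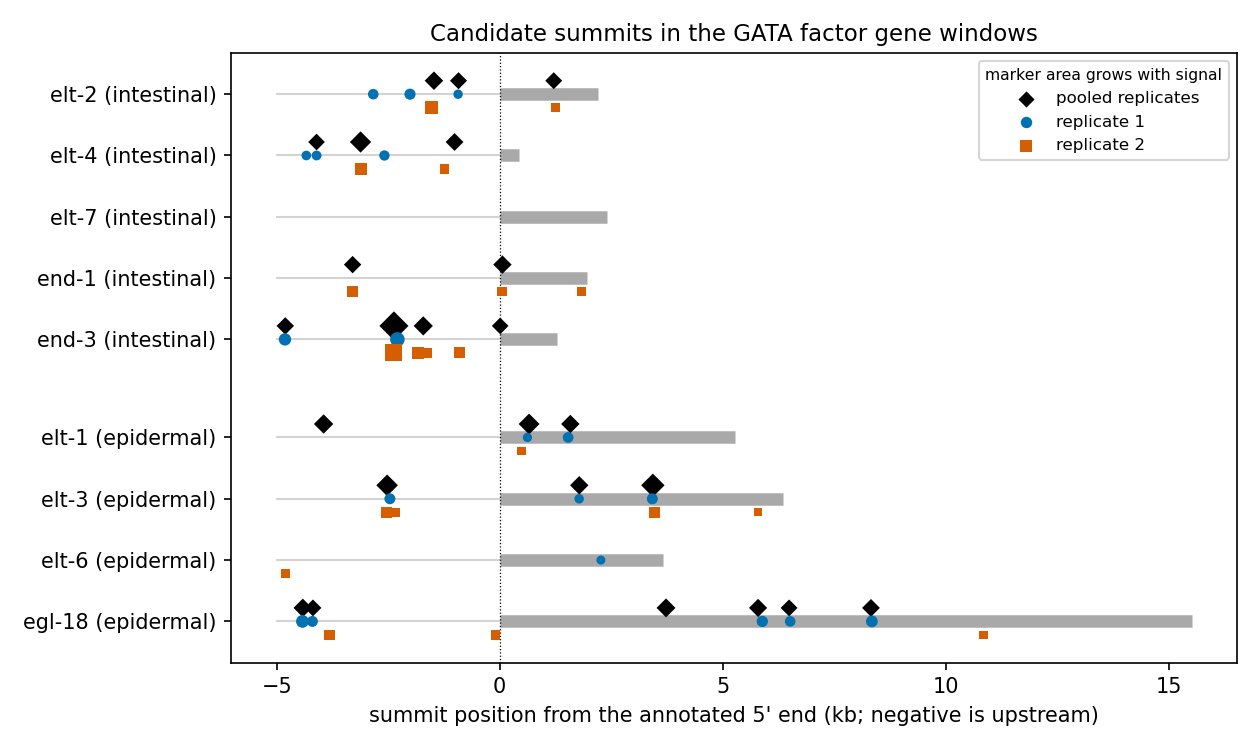
Positions of all candidate summits in the window of each GATA factor gene, in kb from the annotated 5′ end with negative values upstream, for pooled replicates (diamonds), replicate 1 (circles) and replicate 2 (squares); marker area grows with signal and grey bars are gene bodies. The largest marker is the end-3 candidate 2371 bp upstream, and only end-3 and end-1 have a pooled summit within 500 bp of their own 5′ end.

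ELT-2 is the main factor of the differentiated intestine, in which it is active in the larva and the adult. Its gene (WBGene00001250, chrX:10481240-10483441, + strand) had a strongest signal of 18 in the pooled list (rank 15313), 13 in replicate 1 (rank 11285) and 16.6 in replicate 2 (rank 3496). The pooled and replicate 2 values belong to 1 region, 1474 bp upstream by the pooled summit, while the replicate 1 value is from another, 2011 bp upstream, so the replicates did not place their strongest elt-2 candidate together. The remaining pooled candidates had 15.3 at 923 bp upstream, seen again in replicate 1 at 9.23, and 15.1 in a coding exon, seen again in replicate 2 at 9.24. A strongest signal at or above that of elt-2 was found in 61.1% of all genes, so the central gene of the gut cascade lay below the middle of the distribution. ELT-2 is known to activate its own gene through GATA sites. The word TGATAA occurred 5 times in the 1000 bp before elt-2, a number that 1.59% of genes reach or exceed. Of all genes 66.0% have it at least once and 32.9% have 2 or more. Among the members it was found before 8 of 9, with 3 copies each at elt-1 and elt-3, 2 at elt-4, 1 each at elt-7, end-3, elt-6 and egl-18, and none at end-1. Of the pooled summits, 1 fell in the bases before elt-2.

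ELT-4 is a short GATA factor whose gene lies just upstream of elt-2 and for which no essential role is known. Its gene (WBGene00001252, chrX:10475527-10475959, + strand) had a strongest signal of 23.7 in the pooled list (rank 6824), 11.2 in replicate 1 (rank 17075) and 16.2 in replicate 2 (rank 3758). Only replicate 2 had an overlapping candidate at the pooled summit, 3120 bp upstream, and the replicate 1 value came from a summit 2585 bp upstream. The other pooled candidates, 14.6 at 4107 bp upstream and 16.7 at 1012 bp upstream inside the non-coding gene linc-83, were weaker.

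ELT-7 acts with ELT-2 in gut differentiation and is the intestinal factor with no trace in these lists. Its window (gene WBGene00015981, chrV:4770670-4773086, + strand) is 7417 bp long and held 0 pooled candidates, 0 of replicate 1 and 0 of replicate 2. Among 12132 genes with a window within 20% of that length, 6.27% had none in any list and 22.3% had no pooled candidate. The lists stop at a lowest signal of 13.6 pooled, 8.49 in replicate 1 and 7.14 in replicate 2, so a weaker signal at elt-7 could not be seen. The nearest called summit, at R02F11.2, was 23.9 kb from the start of elt-7.

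ELT-1 is the factor that starts the epidermal programme in the embryo. Its gene (WBGene00001249, chrIV:9614995-9620280, + strand) had a strongest signal of 22.8 in the pooled list (rank 7745), 12.1 in replicate 1 (rank 14069) and 8.30 in replicate 2 (rank 22898). The pooled peak lies in an intron, 659 bp into the gene, and overlapped weak candidates in both replicates, 8.99 in replicate 1 and 8.30 in replicate 2. The replicate 1 maximum of 12.1 belongs to a further intronic candidate, 1584 bp into the gene by the pooled summit, with 17.8 in the pool. The candidate 3948 bp upstream, at 19.7, was in neither replicate list.

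ELT-3 is expressed in the epidermal syncytium, and its gene had the best-supported candidates of the epidermal group. elt-3 (WBGene00001251, chrX:13934874-13941216, + strand) had a strongest signal of 28.7 in the pooled list (rank 3889), 12.7 in replicate 1 (rank 12329) and 13.4 in replicate 2 (rank 6772). At the pooled maximum, in an intron 3435 bp into the gene, replicate 1 had 12.7 and replicate 2 had 12.8. At the second candidate, 2524 bp upstream with 24.4 in the pool, replicate 1 had 12.6 and replicate 2 had 13.4. The replicates thus gave nearly equal signals at both places, but not equal ranks. Replicate 1 ranked the intronic candidate 12329 and the upstream one 12570, and replicate 2 ranked them 7722 and 6772. Both pooled summits had elt-3 as the nearest 5′ end. The intronic one was the strongest member candidate of which that is true. A strongest signal at or above 28.7 was found in 25.1% of all genes.

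EGL-18 and ELT-6 keep seam cells in their fate, and the 2 genes lie one after the other on chromosome IV and can be transcribed together. egl-18 (WBGene00001186, chrIV:1902322-1917840, + strand) had the most pooled candidates of any member, 6, in a window of 20519 bp. Among 561 genes with a window within 20% of that length the median was also 6, and 17.1% of them held a called summit. The strongest signals at egl-18 were 18.8 in the pooled list (rank 13451), 17.0 in replicate 1 (rank 4933) and 11.5 in replicate 2 (rank 10408), and these came from 3 separate places. The pooled one, in an intron 3730 bp into the gene, overlapped no replicate candidate, and the other 5 pooled candidates, at 14.9 to 18.1, overlapped candidates of replicate 1 only. No pooled egl-18 candidate had support in replicate 2, and 88.6% of the genes of similar window length had an equal or higher strongest signal. elt-6 (WBGene00001253, chrIV:1917977-1921643, + strand) had no pooled candidate, as had 16.1% of 7623 genes of similar window length. Replicate 1 had 1 candidate of 8.5 in an elt-6 intron (rank 29910) and replicate 2 had 1 of 7.71 (rank 26294), 4803 bp upstream in an intron of egl-18 and so in both windows. These lie at the bottom of lists of 30000.

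By strongest pooled signal the order was end-3, elt-3, elt-4, elt-1, egl-18, elt-2 and end-1, followed by elt-6 and elt-7 without a value. The spread between replicates, taken as the median absolute log2 ratio of replicate 1 to replicate 2 signals over the 10122 uncalled candidates with a match in both, was 0.420. Only the step between end-3 and elt-3, 0.63 on the log2 scale, was larger than that. The end-3 value in this order is that of the candidate 9 bp from the start of aip-1. The pooled candidate at the start of end-3 itself had 14.6. The other neighbouring steps were between 0.02 and 0.28 and within the spread. This spread compares single-replicate signals at the same place, so it does not measure the error of a difference between pooled signals of different genes. From elt-3 to end-1 the whole distance was 0.70. Among all genes with a pooled candidate the median strongest signal was 22.9, and 3 of the 7 members with one exceeded it, as the curve of all genes shows. Of these 3, end-3 did so through the candidate at aip-1.

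**Figure D3:**
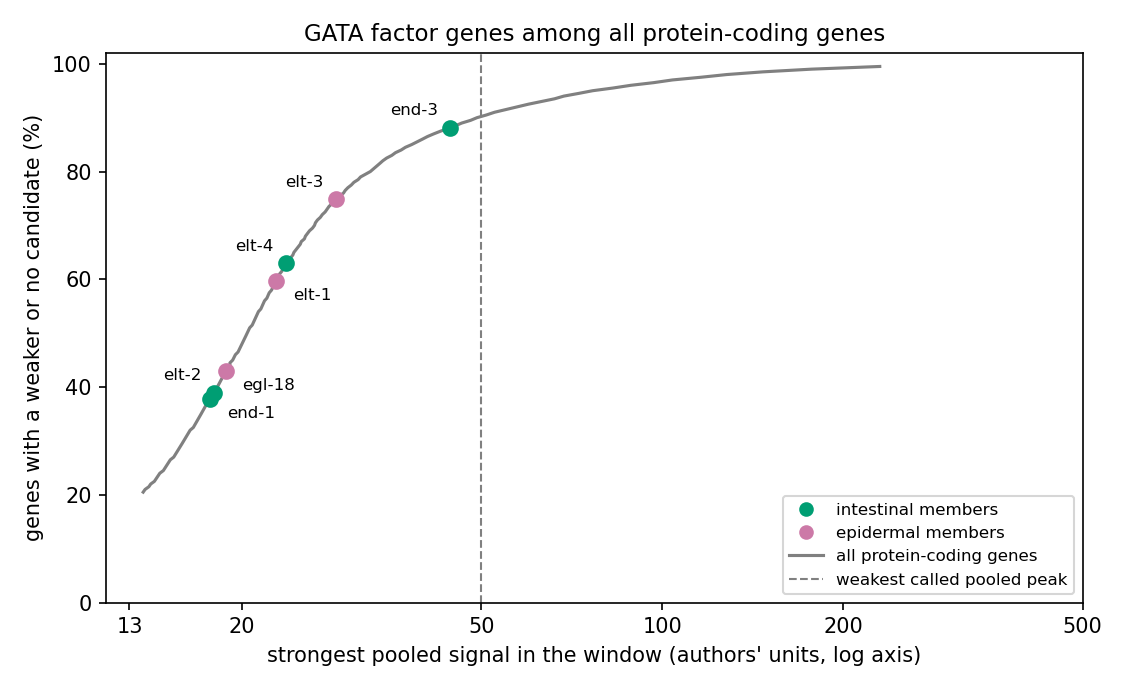
Share of all 19973 protein-coding genes with a weaker or no pooled candidate (vertical axis, %) against the strongest pooled signal in the window (log axis, authors' units); points are the 7 GATA factor genes with a pooled candidate and the dashed line is the weakest called peak. The members are spread along the curve, and 11.9% of genes are at or above end-3, whose value is that of the candidate at aip-1.

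In strongest signal the intestinal and epidermal members differed little in the pool and in replicate 1. They differed more in replicate 2, where the direction was the opposite. The median strongest pooled signal, with genes without a candidate placed lowest, was 18 over the 5 intestinal members and 20.8 over the 4 epidermal members, beside 20.4 over all genes. In replicate 1 alone it was 11.2 for the intestinal and 12.4 for the epidermal members, and in replicate 2 alone 16.2 for the intestinal and 9.91 for the epidermal members. The windows of both groups held 12 pooled candidates, in 33.3 kb of intestinal and 50.8 kb of epidermal window. That is 0.361 per kb at intestinal and 0.236 per kb at epidermal members, where all genes averaged 0.278 with a median of 0.239. The elt-6 and egl-18 windows share 4.86 kb, which the epidermal value counts for both genes. With this stretch and its candidates counted once, a reckoning added after the data were seen, the pooled values were 0.361 at intestinal and 0.261 at epidermal members. On the same footing replicate 1 had 0.240 at intestinal and 0.239 at epidermal members, and replicate 2 had 0.330 at intestinal and 0.174 at epidermal members, so replicate 1 showed no difference in density. Each pooled candidate was also counted only where the member holding it in its window had the nearest start. The values were then 0.240 for the intestinal and 0.239 for the epidermal members. At intestinal members this removed candidates at aip-1 and other neighbours. At epidermal members it removed an egl-18 intron candidate, 8326 bp into the gene. Its nearest start is that of elt-6, also a member, but it lies outside the elt-6 window. With it kept, the epidermal value is 0.261. With 5 and 4 genes in 1 experiment these differences were not tested.

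Replicate support was thin at the members. Of their 24 pooled candidates, 4 (16.7%) overlapped a candidate in both replicates, 10 (41.7%) in replicate 1 only, 7 (29.2%) in replicate 2 only and 3 (12.5%) in neither. Over all 27586 uncalled candidates, the shares were 36.7% in both, 30.6% in replicate 1 only, 24.4% in replicate 2 only and 8.30% in neither, and 99.6% of the called peaks were in both. The 4 with both were the aip-1 candidate in the end-3 window, the intronic and upstream candidates of elt-3 and the first intronic candidate of elt-1. The deposited −log10 q-value was low at nearly all of them: 1 of 24 member candidates, that at aip-1 with 1.83, reached 1.3, which stands for a q-value of 0.05, and the next was elt-3 with 0.546. Over the whole pooled list 6.67% reached 1.3.

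In the annotation, 9 of the 24 summits were intergenic, 9 in introns of protein-coding genes, 4 in coding exons and 2 inside non-coding genes or pseudogenes. For 20 of them the nearest protein-coding 5′ end was that of a member, yet only 2 lay within 500 bp of it, the weak ones at the starts of end-1 and end-3. The nearest called summit was 22.9 kb (end-1) to 131 kb (egl-18) from the start of a member, with a median of 74.3 kb against 34.7 kb over all genes, and 7 of 9 members exceeded that value. Intestinal members had a median of 40.5 kb and epidermal members 98.2 kb. These distances are not all separate observations, because neighbouring members can be measured to the same peak. The nearest called summit, at syd-2, was the same for elt-2 and elt-4, and that at cpsf-1 was the same for elt-6 and egl-18. The members lie 3 each on chromosomes IV, V and X, and a called summit was held by 8.87% of genes on IV, 8.09% on V and 7.80% on X.

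GATA factors often bind near their own genes, so the sequence within 50 bp of each summit was searched on both strands for GATAA and for the longer TGATAA, which contains it. GATAA was present at 11 of 24 member summits (45.8%, exact Clopper-Pearson 95% interval 25.6 to 67.2%). It was at 16.4% of called summits and at 20.9% of all other pooled candidates. These other candidates are all the uncalled ones and include the 24 at members. TGATAA was present at 6 of 24 member summits (25%), 5.35% of called and 9.39% of other summits. Intestinal members had GATAA at 5 of 12 summits and epidermal members at 6 of 12. The member windows as a whole were somewhat richer in the word: of their 828 stretches of 101 bases, with the part that elt-6 and egl-18 share counted for both, 25.7% held GATAA, against 21.1% over the 6 chromosomes. The interval covers counting error only, and summits of 1 gene are not independent. The word GACGCA was at 0 of 24 member summits, a count that allows up to 14.2% (upper bound of the exact 95% interval), at 19.6% of called and at 2.79% of other summits. GAGAGA was at 2 of 24 member summits (8.33%), 30.6% of called and 7.43% of other summits. For both words the shares at members were nearer to those of the uncalled candidates, a set that includes the members, than to those of the called peaks. AGGTCA, a core word that many nuclear receptors bind, was at 1 of 24 member summits (4.17%), 2.45% of called and 2.32% of other summits. That share depended on the flank: within 100 bp of the summit AGGTCA was at 5 of 24 member summits (20.8%, exact interval 7.13 to 42.2%), 4.73% of called and 4.68% of other summits. AAGTCA was at 1 of 24 member summits within 50 bp, with 3.07% of called and 4.41% of other summits. Within 100 bp it was at 4 of 24 (16.7%, exact interval 4.74 to 37.4%), with 6.84% of called and 8.81% of other summits. The word AGTGCA was at 1 of 24 member summits within 50 bp, with 6.13% of called and 3.31% of other summits, and at 2 of 24 (8.33%) within 100 bp, with 10.4% of called and 6.55% of other summits. Members had a median of 35.1% G and C around the summit, against 45.5% at called and 32.7% at other summits.

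The strongest candidates that lie nearest to a member's own start are shown for comparison, as 101 bases around the pooled summit on the + strand of ce11, from RefSeq, with GATAA or its reverse complement TTATC in capitals. They are the elt-3 intron at chrX:13938259-13938359, the elt-3 upstream region at chrX:13932300-13932400, the elt-4 upstream region at chrX:10472357-10472457 and the elt-1 intron at chrIV:9615604-9615704:
elt-3 intron: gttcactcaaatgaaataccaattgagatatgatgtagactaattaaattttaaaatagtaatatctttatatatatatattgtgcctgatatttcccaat
elt-3 upstream: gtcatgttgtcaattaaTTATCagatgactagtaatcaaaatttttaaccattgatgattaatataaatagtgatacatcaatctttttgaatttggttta
elt-4 upstream: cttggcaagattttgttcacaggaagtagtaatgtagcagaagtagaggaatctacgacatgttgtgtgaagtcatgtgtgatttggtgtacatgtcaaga
elt-1 intron: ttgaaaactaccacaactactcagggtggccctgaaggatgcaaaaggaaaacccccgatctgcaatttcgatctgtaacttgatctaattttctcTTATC
Both elt-3 stretches are rich in A and T, with 22.8% G and C each, and the elt-4 and elt-1 stretches have 39.6% and 41.6%. One copy of the word is in the elt-3 upstream stretch and one at the end of the elt-1 stretch, and the elt-3 intron and elt-4 stretches have none.

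Some genes upstream of the endodermal GATA cascade held called NHR-11 summits. Of 9 genes listed for endoderm specification, 4 (44.4%) had one in their window, beside the 9.77% of all genes, whose windows have a median length of 7027 bp. The list is short and was chosen with earlier results of these data known, so the share is a description only and was not tested. SKN-1, the maternal bZIP factor that starts the cascade through the med genes, had a called summit in an intron of skn-1, with a signal of 93.1 in the pool, 50.5 in replicate 1 and 46.9 in replicate 2. LIT-1 and WRM-1, a Nemo-like kinase and a β-catenin that act together in the Wnt signal to the endoderm precursor, had called summits too. That in an intron of lit-1, 14439 bp into the gene, had 126 pooled, 73.7 in replicate 1 and 57.6 in replicate 2. That 819 bp from the start of wrm-1 had 63.4 pooled, 37.7 in replicate 1 and 28.6 in replicate 2. The called summit in the window of sys-1, which encodes a β-catenin that works with the TCF factor POP-1, had 54.0 pooled, 29.5 in replicate 1 and 27.1 in replicate 2, but lies 4232 bp from sys-1 and 106 bp from the histone gene his-68. The window of lit-1 is 27.4 kb long and that of skn-1 14.3 kb, and among genes with windows within 20% of these lengths a called summit was held by 17.1% for lit-1 and 13.9% for skn-1. For wrm-1 and sys-1, with windows of 9.27 and 9.73 kb, the shares were 11% and 11.2%. The other 5 genes of the list had candidates under the weakest called peak or none, and the median strongest signal over the 9 genes was 23.7.

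Called summits were at 0 of 12 intestinal genes, 0 of 11 epidermal regulators and 0 of 14 epidermal genes, beside 9.77% of all genes. The lists are short, and these counts are a description only. The strongest candidate among the intestinal genes was 37.0 at spl-1, which encodes sphingosine phosphate lyase, at a summit nearer to the start of rps-24. Among the epidermal regulators it was 48.7 at nhr-23, a nuclear receptor gene needed for moulting, at a summit 4684 bp upstream and nearer to C01H6.3, and among the epidermal genes 36.0 in an intron of che-14, a gene for apical secretion in epithelia. Of 4 other GATA-type genes (med-1, med-2, egl-27 and lin-40), 1 held a called summit, again beside 9.77% of all genes. This was lin-40, for an MTA-type subunit of the NuRD chromatin complex, with 84.2 pooled, 48.9 in replicate 1 and 34.4 in replicate 2, 895 bp upstream. The window of med-1 had no pooled candidate. The strongest at med-2 had 38.1 pooled and 29.9 in replicate 2, with no match in replicate 1. Its summit lay 3666 bp upstream of med-2 and nearer to the start of another gene. med-1 and med-2 are nearly identical copies, and reads that fit both could be lost or split between them, which was not tested. The plot of the lists shows the called genes to the right of the threshold and all 9 members to its left.

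**Figure D4:**
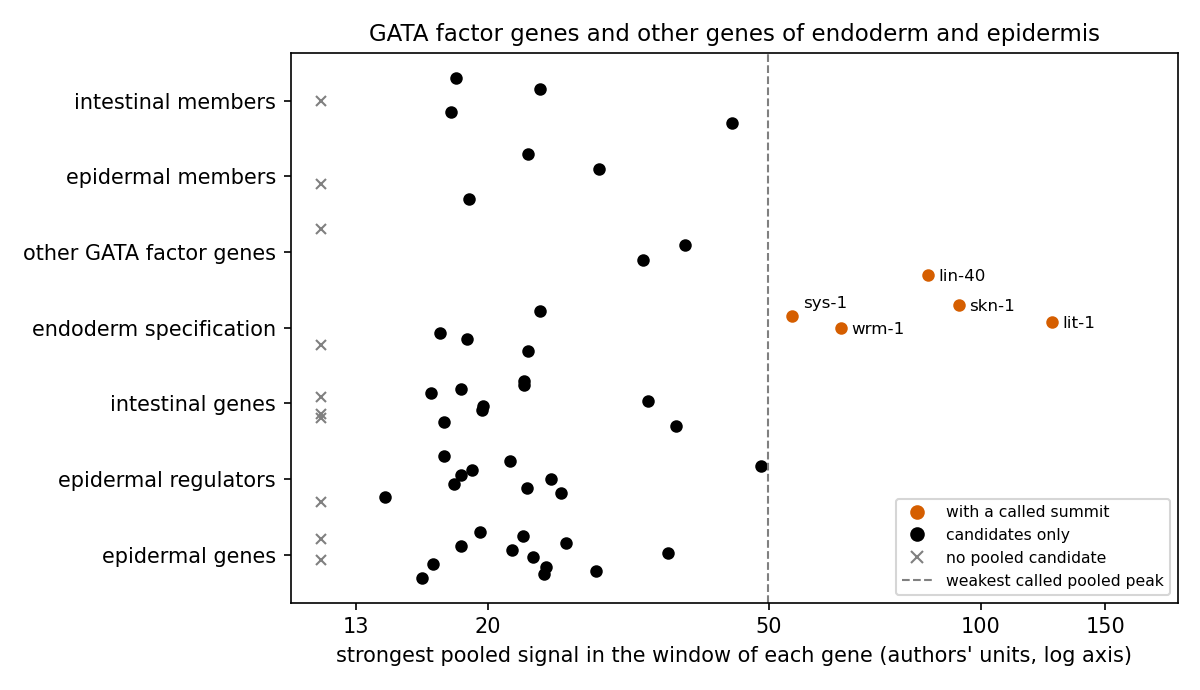
Strongest pooled signal in the window of each gene (log axis, authors' units) for intestinal and epidermal GATA factor genes and 5 further gene lists, with orange points for genes with a called summit, black points for candidates only and crosses for genes without a pooled candidate. The 5 orange points are lit-1, skn-1, lin-40, wrm-1 and sys-1, and the 9 members have none.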

How the data were processed

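The authors deposited narrowPeak lists on the ce11 and ce10 builds: candidates of each replicate, candidates of the pooled replicates and an IDR-thresholded list. Per the deposited notes, a control file entered the peak calls; control reads were not analysed here. The sources used here do not give the aligner, peak caller, IDR threshold or extraction protocol. The authors' signal value ranked and described peaks, and the deposited −log10 q-value column was used as a description. No read counts are in the lists, so depth is unknown. The ce10 lists were not used.

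Gene models were those of Ensembl release 115 for WBcel235, which is the ce11 assembly, and sequences were read from RefSeq. Windows ran from 5000 bp upstream to the gene's end and were assigned by summit; pooled and replicate peaks were matched by an overlap of 1 bp or more. The members and lists were chosen with earlier results of these data known. Named were all members, genes sharing or nearest to a described member summit, list genes with a called summit or else the strongest candidate, and the 3 genes most like end-3 in log2 signal, which a tie made 4. Genes at called summits nearest to members were named after their values were seen. With 1 group of 2 samples there was no test. Window assignment, ranks and word searches were tested on simulated data. Python 3.11.15, numpy 2.4.6, scipy 1.17.1 and matplotlib 3.10.9 were used. Alternatives changed the window, the overlap rule, the flank and the word searched, or used 1 replicate in place of the pool.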

Additional observations from a re-analysis of the deposited data

How the results depend on the processing

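The number of members with a called summit was 0 under every alternative window and overlap rule, and 0 to 1 when the 1141 strongest candidates of a single replicate replaced the called list; the 1 was end-3 in replicate 2. Their candidates, 24 as reported, numbered 12 with 1000 bp upstream, 15 with 2000 bp and 13 in the upstream window alone, because these windows are smaller. They numbered 19 in each replicate; the cause was not tested. The median strongest signal of intestinal members, 18, was 23.7 with 10000 bp upstream and 11.2 to 16.2 in single replicates. That of epidermal members, 20.8, was 18.9 in the upstream window alone and 9.91 to 12.4 in single replicates, whose signal scale is lower than that of the pool. Candidates per kb at intestinal members, 0.361, were 0.292 with 10000 bp, 0.240 by nearest start and 0.240 to 0.330 in single replicates. At epidermal members, 0.236, they were 0.206 with 2000 bp, 0.20 in the upstream window alone and 0.177 to 0.216 in single replicates. The share of member summits with GATAA, 45.8%, was 25% for TGATAA and 66.7% for GATAA within 100 bp. With that wider flank the share was 32.4% at called and 37.7% at other summits. An alternative without the aip-1 candidate, chosen after seeing the data, left 23 candidates, and both medians stayed at 18 and 20.8. Neither median could have moved. The candidate is in no epidermal window, and the next end-3 candidate, at 19.4, still lies above the intestinal median of 18. With the stretch shared by elt-6 and egl-18 counted once, likewise added, epidermal members had 0.261 per kb. Of 68 alternative values, 52 moved less than the limit set for each result and 16 moved more. Some of the 52 could not have moved, so this tally does not measure robustness. Keeping only the stronger called peaks cannot change pooled counts, medians or densities, nor raise a count of 0. The called summit nearest to any member start was 22.9 kb away, so windows of up to 10000 bp upstream could not reach one. No paired analysis was possible because there is only 1 group. The lists end at a lowest signal, so weaker binding could not be detected, and depth is unknown.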
